A study of Mus musculus with 9 samples.

Results

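The cadherin genes Cdh1, Cdh2, Cdh3, Cdh6, Cdh11 and Cdh16 were taken by symbol from the deposited expression tables, and all 6 were found among 55487 mouse genes. They were measured by RNA-seq in PT-22 cells, a mouse kidney line labelled as proximal tubule, in 9 libraries of 3 per group. All groups are labelled with the genotype Pax2-/-, Pax8fl/fl, Rosa-CreERT2, in which a tamoxifen-activated Cre recombinase is expressed from the Rosa locus, and all carry Pax8 in the inducible vector pTRIPZ. Day 0 cells were untreated. Day 6 cells had received 4-hydroxytamoxifen (1 uM) to delete Pax8, given for 2 days in the treatment protocol, while the series design speaks of depletion over 6 days. Day 12 cells had then received doxycycline (1 ug/ml) every 2 days for another 6 days. Nothing in the labels ties the 3 replicates of a day to cultures of their own, and p-values therefore reflect how far libraries of a day differ, which could be technical spread alone. No vehicle-treated, untreated later or doxycycline-free day 12 library was analysed here, so drug, time in culture and PAX8 cannot be told apart.

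Cadherins are calcium-dependent adhesion proteins that join neighbouring cells. The cytoplasmic tail of a classical cadherin binds catenins, which link it to actin. Cdh1 (E-cadherin), Cdh2 (N-cadherin) and Cdh3 (P-cadherin) are type I classical cadherins, and Cdh6 (K-cadherin) and Cdh11 (OB-cadherin) are type II. Cdh16, kidney-specific or Ksp-cadherin, is usually placed outside the classical group, because it has more extracellular repeats and a short tail without the catenin-binding region. In the kidney, Cdh2 is typical of the proximal tubule and Cdh1 of more distal segments, Cdh6 marks early proximal precursors, Cdh16 lies on the side membranes of tubule cells, and Cdh11 is mostly mesenchymal.

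Libraries held 56397100 to 86765292 counts. Pax8 counts were not lower after 4-hydroxytamoxifen, with 291 ± 1.67, 405 ± 5.87 and 496 ± 7.79 CPM at days 0, 6 and 12 (counts scaled by library size with TMM; mean ± SD of 3 libraries). A count over the whole gene cannot tell deleted, intact and vector-borne Pax8 apart, so the groups are called by day. Pax2, which the genotype label gives as deleted, was also counted, at 31.9 ± 2.36, 46.9 ± 3.23 and 52.3 ± 3.19 CPM at days 0, 6 and 12, and was called higher at day 6 than at day 0 (adjusted p = 8.64e-07). Whether those Pax2 counts come from a transcript with a deletion was not tested. The label of the cells was only partly borne out by the markers: 7 of 12 proximal tubule markers stayed below 1 TPM in every library, and Slc34a1, Slc5a12 and Slc22a6, proximal tubule transporters, had no count at all. Lrp2 (megalin), the uptake receptor of the proximal tubule, averaged 33.3, 5.2 and 7.41 TPM at days 0, 6 and 12. Of the 6 proximal markers tested, 3 rose and 3 fell between day 6 and day 0, beside 33.5% of all genes higher and 31.4% lower. The water channel gene Aqp1 averaged 65.2, 184 and 216 TPM at days 0, 6 and 12. The summed level of the 12, mostly Aqp1, was 99.5 to 116 TPM at day 0, 198 to 212 TPM at day 6 and 220 to 258 TPM at day 12. The mitochondrial share of counts was 6.66% to 6.94% at day 0, 7.04% to 7.18% at day 6 and 2.1% to 3.96% at day 12, where replicate B was highest. Leaving out that library kept the call and direction of each member in every comparison except the rise of Cdh1 between days 6 and 12.

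Untreated cells held 4 of these cadherins in quantity and almost none of Cdh1 and Cdh11. In TPM, which is scaled for gene length and so allows genes to be compared, Cdh16 led at day 0 with 468 ± 4 (SD, n = 3). Cdh6 followed with 156 ± 5, Cdh2 with 108 ± 1.41 and Cdh3 with 30.8 ± 0.236 TPM. Cdh1 reached 0.203 ± 0.0603 TPM, and Cdh11 was listed at 0.09 TPM in each of the 3 libraries. No neighbours in this order overlapped between libraries. At day 6 the order of Cdh6 and Cdh2 was exchanged, with 41.2 ± 0.311 TPM for Cdh6 and 45.8 ± 0.729 TPM for Cdh2. At day 12 that pair overlapped, at 56.1 to 63 TPM for Cdh6 and 54.5 to 61.1 TPM for Cdh2. The remaining ranks were the same at all 3 days.

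**Figure D1:**
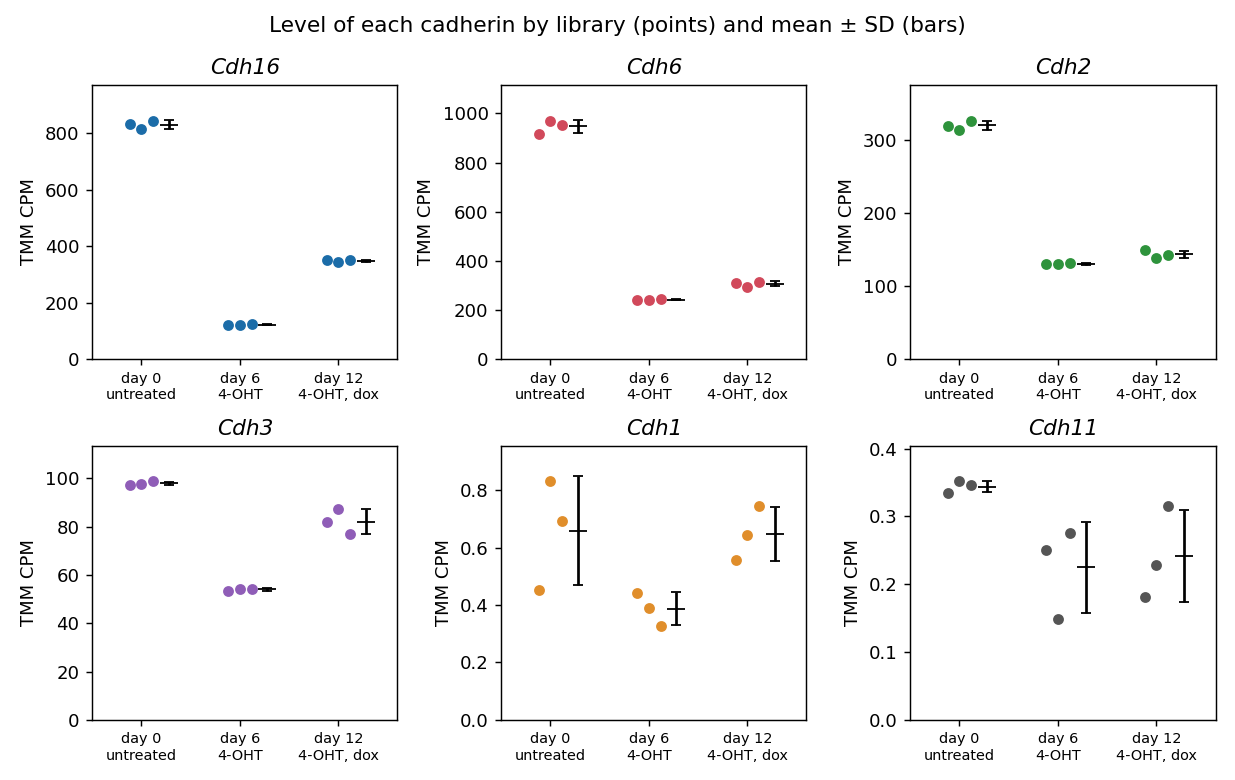
TMM-scaled CPM (vertical axes, each from 0 and on its own scale) of the 6 cadherins at day 0, day 6 after 4-hydroxytamoxifen (4-OHT) and day 12 after 4-OHT and then doxycycline (dox). Points are single libraries and bars the mean ± SD of 3. Cdh16, Cdh6, Cdh2 and Cdh3 are lowest at day 6, and Cdh1 and Cdh11 stay below 1 CPM throughout.

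Between day 6 and day 0, 5 of the 6 cadherins fell and none rose, in an edgeR quasi-likelihood test over 16353 genes (adjusted p under 0.05). Of all genes tested, 64.9% were called, 31.4% lower and 33.5% higher. Cdh16, Cdh6 and Cdh2 fell by more than 2-fold, as 4.65% of all genes did, while 9.66% rose by as much. In CPM, the day 6 libraries of all 6 members lay outside the range of the day 0 libraries, which held for 68.9% of genes. For Cdh1 the gap was slight, at 0.443 CPM in day 6 replicate A against 0.454 CPM in day 0 replicate A. Both of those libraries stood at 0.14 TPM for Cdh1. The median log2 fold change of the 6 was −1.08, beside 0.02 for all genes. In bulk RNA, fewer cells of a type and less RNA per cell cannot be told apart.

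Cdh16 (ENSMUSG00000031881, GRCm38 chromosome 8, 104601911 to 104624396, minus strand) changed most. It had 833, 814 and 845 CPM at day 0, 121, 119 and 124 CPM at day 6, and 350, 345 and 352 CPM at day 12. The 3 groups were wide apart, with the day 12 libraries in between. The log2 fold change for day 6 against day 0 was −2.77 ± 0.032 (SE, adjusted p = 5.93e-18), which left 14.6% of the day 0 level, and 0.813% of genes had a lower value. In rat thyroid cells, Cdh16 is a reported direct target of PAX8.

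Cdh6 (ENSMUSG00000039385, chromosome 15, 13028701 to 13173675, minus strand), the type II cadherin of early proximal tubule, had the highest count of the 6 at day 0. It stood at 918, 970 and 953 CPM at day 0, 242, 242 and 242 CPM at day 6, and 311, 294 and 313 CPM at day 12. Day 6 and day 12 lay close together, far below day 0, and did not overlap. The log2 fold change for day 6 against day 0 was −1.97 ± 0.0348 (adjusted p = 5e-16).

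Of the members, only Cdh6 had a window in the RefSeq promoter table used here (GRCm38.p6). Its 250 bases before the start (chr15:13173676-13173925, minus strand) are shown because Cdh6 was, after Cdh16, the member that fell most. The sequence runs 5′ to 3′ along the gene, and capitals mark the single E-box.
Cdh6 upstream: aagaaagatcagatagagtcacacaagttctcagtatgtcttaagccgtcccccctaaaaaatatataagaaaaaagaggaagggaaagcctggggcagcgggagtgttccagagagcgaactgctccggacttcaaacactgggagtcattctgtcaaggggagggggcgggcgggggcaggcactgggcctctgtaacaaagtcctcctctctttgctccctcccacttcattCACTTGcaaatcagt
The E-box, CANNTG searched on both strands, began 15 bases before the start, and 66.2% of 32851 promoter windows of that length hold one. The SNAI/ZEB form CAGGTG (17.2% of windows), which is itself an E-box, the PAX2/5/8 core GTCACGC (1.78%) and its shorter form GTCACG (6.93%) had no match in these letters. The window held 51.2% G and C, beside a median of 52.4% over all windows.

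Cdh2 (ENSMUSG00000024304, chromosome 18, 16588877 to 16809246, minus strand), the N-cadherin of the proximal tubule, had 320, 314 and 327 CPM at day 0, 130, 130 and 132 CPM at day 6, and 149, 139 and 142 CPM at day 12. The day 6 and day 12 libraries were again much lower than day 0 and close to each other. Its log2 fold change was −1.3 ± 0.0323 for day 6 against day 0 (adjusted p = 2.35e-14). Cdh3 (ENSMUSG00000061048, chromosome 8, 106510891 to 106557297, plus strand), P-cadherin, had 97.3, 97.7 and 98.7 CPM at day 0, 53.4, 54.3 and 54.3 CPM at day 6, and 82, 87.2 and 77 CPM at day 12. It fell least of the abundant members, by 0.86 ± 0.0389 on the log2 scale (adjusted p = 2.7e-11), and its day 12 libraries were the most spread.

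Cdh1 (ENSMUSG00000000303, chromosome 8, 106603351 to 106670246, plus strand) lies 46.1 kb downstream of Cdh3 on the same strand, yet had only 19 to 52 counts in a library. It had 38, 52 and 48 counts at day 0, 30, 29 and 19 at day 6, and 43, 48 and 45 at day 12. Counting error alone is wide here: the 38 counts of day 0 replicate A stand for 0.454 CPM with an exact 95% Poisson interval of 0.321 to 0.623, which covers counting error only. For day 6 against day 0, Cdh1 was lower by −0.74 ± 0.271 (log2, adjusted p = 0.0256). That call was lost without day 0 replicate B (adjusted p = 0.12) or C (0.0651), without day 6 replicate B (0.0533) or C (0.0836), and on log2(TPM + 1) (0.162), and then 4 members fell.

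Cdh11 (ENSMUSG00000031673, chromosome 8, 102632095 to 102785642, minus strand), the mesenchymal type II cadherin, had 28, 22 and 24 counts at day 0, 17, 11 and 16 at day 6, and 14, 17 and 19 at day 12. In counts and CPM, though not in TPM, the day 0 libraries lay above the rest. The test did not call Cdh11 (log2 fold change for day 6 against day 0 −0.63, 95% interval −1.44 to 0.182, adjusted p = 0.111). None of the 6 genes shares an exon base with another gene in GENCODE M21.

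Between day 12 and day 6, 5 of the 6 were called higher and none lower, whereas 45.3% of all genes were called, 22.6% higher and 22.7% lower. That split depended on the scaling. With TMM 50% of calls were higher and with DESeq2 size factors 46.2%. With upper-quartile factors 60.5% were higher, and on log2(TPM + 1) 90.1% of 8876 calls. Cdh16 passed 2-fold, as did 2.28% of genes upwards and 1.99% downwards. Libraries of the 2 days overlapped for Cdh11 alone among the members, and did not overlap for 53.9% of genes. Cdh16 rose most, to 349 ± 3.64 CPM at day 12 against 121.5 ± 2.56 CPM at day 6 (log2 fold change 1.52 ± 0.0311, adjusted p = 4.31e-14), and 98.9% of genes had a lower value. Cdh3 rose to 82.1 ± 5.11 against 54 ± 0.535 CPM (0.61 ± 0.039, adjusted p = 1.58e-08). The rise of Cdh6 was small, to 306 ± 10.4 against 242 ± 0.307 CPM (0.34 ± 0.0338, adjusted p = 1.52e-06). That of Cdh2 was smaller still, to 143 ± 5.21 against 130 ± 1.04 CPM (0.14 ± 0.0322, adjusted p = 0.00282).

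Cdh1 was called higher at day 12, with 0.648 ± 0.0952 against 0.387 ± 0.0582 CPM at day 6 (log2 fold change 0.73 ± 0.271, adjusted p = 0.0403). The call did not hold in DESeq2 (adjusted p = 0.0622) or without day 6 replicate A (0.0524), B (0.084) or C (0.122) or day 12 replicate B (0.0774) or C (0.124), and 4 members then rose. Cdh11 did not pass the test (0.1, 95% interval −0.752 to 0.948, adjusted p = 0.847). On log2(TPM + 1) the median of all genes lay at 0.16 in this comparison. Relative to that shift, Cdh16 was higher by 1.53, Cdh3 by 0.62, Cdh6 by 0.38 and Cdh2 by 0.17 on the log2 scale. Cdh1 and Cdh11, at 0.06 and −0.15, lie below 1 TPM, where adding 1 shrinks any change. On log2(TPM + 0.1) in limma, Cdh1 was higher by 0.87 (adjusted p = 0.00415), beside a median of 0.21 for all genes. Cdh11 stood at 0.11 there (adjusted p = 0.62).

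**Figure D2:**
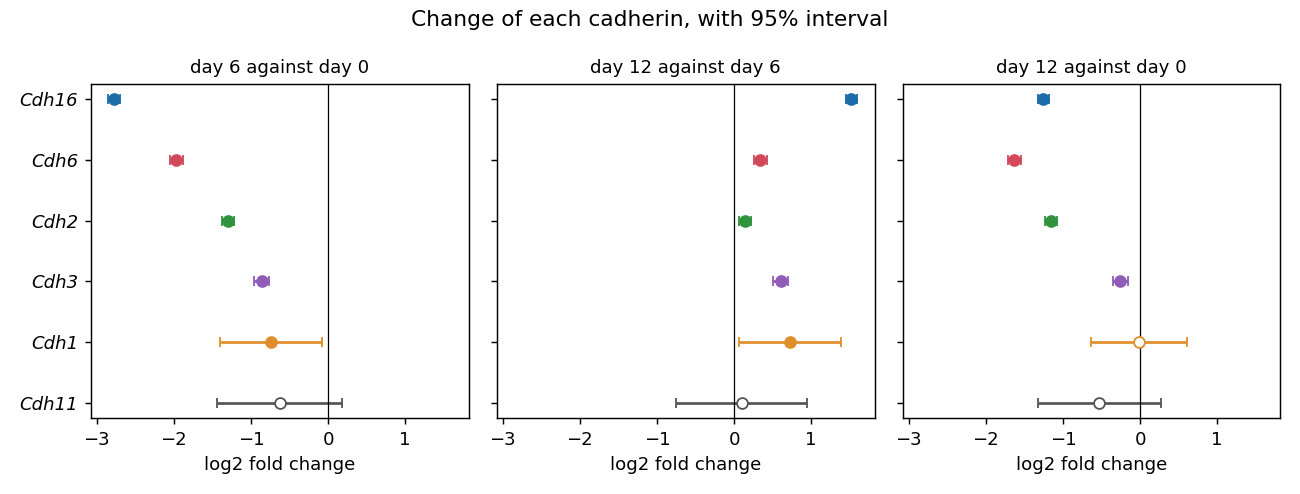
Log2 fold change (horizontal axes, the same range in all panels) of the 6 cadherins. Panels show day 6 against day 0, day 12 against day 6 and day 12 against day 0. Bars are 95% intervals from the SE and a t distribution on 6 residual degrees of freedom. They are wider than the edgeR test implies, because that test also uses variance information shared across genes. Filled points passed the test (adjusted p under 0.05) and open points did not. Cdh16 moved most in the first 2 panels, at −2.77 and 1.52.

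At day 12, 4 of the 6 were still below day 0 and none above it, with 66.4% of all genes called, 31.7% lower and 34.7% higher. On log2(TPM + 1), 81.3% of all calls in that comparison were higher, against 52.3% with TMM scaling. Cdh6, Cdh16 and Cdh2 were still over 2-fold lower, as were 4.18% of genes, and 9.43% were over 2-fold higher. In CPM, libraries of the 2 days overlapped for Cdh1 alone among the members, and did not overlap for 69.7% of genes. In TPM, Cdh1 did not overlap (0.27 to 0.38 at day 12 against 0.14 to 0.26 at day 0). Cdh3 (29.6 to 31.8 against 30.5 to 31) and Cdh11 (0.06 to 0.1 against 0.09) overlapped instead. Cdh6 remained furthest below, at 306 ± 10.4 CPM at day 12 against 947 ± 26.6 CPM at day 0 (log2 fold change −1.63 ± 0.0343, adjusted p = 5.79e-15). Cdh16 stood at 42% of its day 0 level (−1.25 ± 0.0304, adjusted p = 3.04e-14) and Cdh2 at 44.8% (−1.16 ± 0.0321, adjusted p = 1.28e-13). Cdh3 was lower by 0.25 on the log2 scale (SE 0.0379, adjusted p = 2.79e-05), with 82.1 ± 5.11 against 97.9 ± 0.748 CPM. The call of Cdh3 depended on the unit: on log2(TPM + 1) its difference was 0.0090 (adjusted p = 0.85), in a comparison where the median of all genes was 0.19. Cdh1 did not differ detectably (−0.01, 95% interval −0.635 to 0.606, adjusted p = 0.965), and its 136 counts at day 12 against 138 at day 0 cannot resolve a change under about that interval. Cdh11 was not called either (−0.53, 95% interval −1.32 to 0.266, adjusted p = 0.166).

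The members differed in how much of the fall was regained. The rise from day 6 to day 12 made up 54.85% of the log2 fall of Cdh16, 70.5% of that of Cdh3, 17.2% of that of Cdh6 and 10.6% of that of Cdh2. For comparison, the median over the 761 genes that fell at least 2-fold by day 6 was 39.6%, with quartiles at 20.9% and 61.9%. Cdh3, which fell 1.81-fold, is not among those genes. The median was taken with TMM scaling only. Both changes share the day 6 libraries, and these shares are a description. Cdh1, at 19 to 52 counts in a library, regained 98% on the same scale, or 194% from TPM. As a share of the fall in CPM rather than log2, Cdh16 regained 32%, Cdh3 64%, Cdh6 9.09% and Cdh2 6.85%. From TPM, on the log2 scale, the shares were 62.85% for Cdh16, 101% for Cdh3, 29% for Cdh6 and 27.5% for Cdh2, so the order of Cdh16 and Cdh3 above the other two was kept. Cdh16, Cdh6, Cdh2 and Cdh3 each fell, rose again and were still below day 0, a course that 7.88% of all genes followed, and 13.4% fell and rose again wherever they ended.

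Together the 6 cadherins summed to 763 ± 6.31, 176 ± 2.33 and 383 ± 14.7 TPM on days 0, 6 and 12 (mean ± SD of 3 libraries). Cdh16 supplied 61.3% ± 0.489 of it at day 0, 40.4% ± 0.597 at day 6 and 60.8% ± 0.215 at day 12. The share of Cdh2 was 14.2% ± 0.129, 26% ± 0.266 and 15.2% ± 0.293 at the same days. Thus the makeup at day 6 held more Cdh2 and less Cdh16 per cadherin transcript, although both were lower in level. Cdh6 took 20.4% ± 0.578, 23.4% ± 0.216 and 15.8% ± 0.487, and at day 12 its share was below that of day 0 in every library. Cdh3 took 4.04% ± 0.0211, 10% ± 0.176 and 8.12% ± 0.526. Cdh1 and Cdh11 together never came near 1%, with means of at most 0.0833% and 0.0359%.

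**Figure D3:**
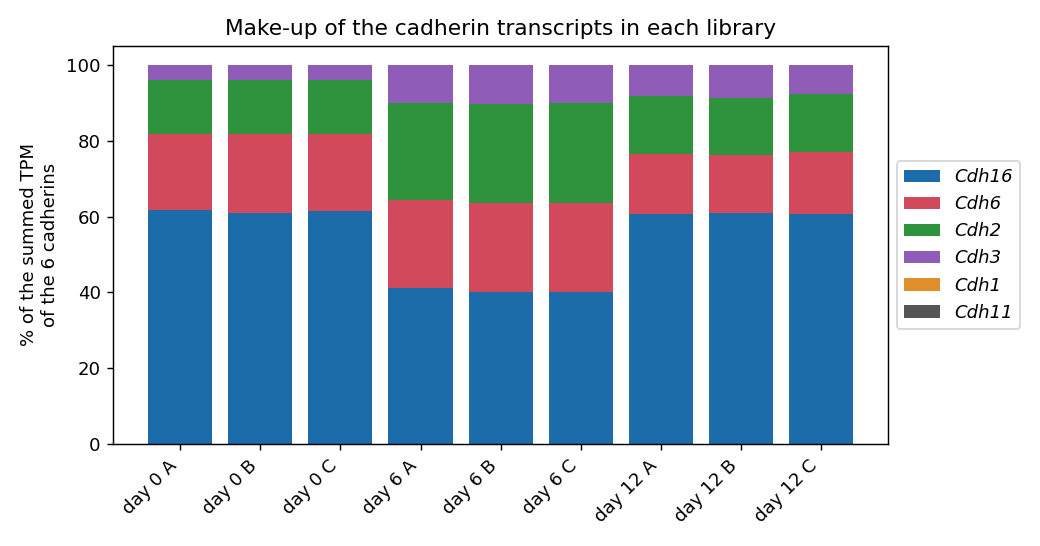
Share of each cadherin in the summed TPM of the 6 (vertical axis, percent) in each of the 9 libraries, ordered by day and replicate. Cdh16 supplies about the same share at day 0 and day 12 (61.3% and 60.8%) and less at day 6 (40.4%), and Cdh1 and Cdh11 are too low to be seen.

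Ratios between members within a library show the same makeup without regard to depth. On the log2 scale, TPM of Cdh16 over Cdh6 gave ratios of 1.59 ± 0.0522, 0.79 ± 0.0339 and 1.94 ± 0.0475 on days 0, 6 and 12. No library of one day overlapped those of another. The log2 ratio of Cdh2 to Cdh1, often used to describe a switch from E- to N-cadherin, gave 9.1 ± 0.455, 8.51 ± 0.197 and 7.53 ± 0.335 on the same days. N-cadherin transcripts thus exceeded E-cadherin transcripts in every library, by 143-fold to 771-fold, with the Cdh1 side resting on 52 counts or fewer. The exact two-sided permutation p for the Cdh2 to Cdh1 ratio was 0.2 for day 6 against day 0 and 0.1 for the other comparisons (adjusted 0.107 over 15 tests of 5 ratios). With 3 libraries against 3, 0.1 is the smallest p possible, so no ratio could pass. Adding 1 to each TPM turned the day 12 against day 6 difference of that ratio from −0.97 into 0.11.

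Cdh2 and Cdh6 had courses of nearly the same shape over the 9 libraries (Pearson r = 0.997 of log2 CPM). So did Cdh3 and Cdh16 (0.977), while Cdh2 and Cdh3 were less alike (0.784). Pearson r ignores the size of a change. By day 6, Cdh6 fell 3.91-fold and Cdh2 2.455-fold, and Cdh16 fell 6.84-fold and Cdh3 1.81-fold. These correlations describe libraries that mostly differ by day, and many genes share such a course. Among 10277 genes with a mean of at least 5 CPM, those most like Cdh16 were Tspan18 (r = 0.999), Adamts1 (0.999) and Col4a4 (0.999), and 672 genes had r above 0.95. Nearest to Cdh6 were Nek2 (0.999), Usp46 (0.999) and Pop1 (0.999), with 1148 genes above 0.95. Rgs17, Trabd2b and Nup210 were closest to Cdh2 (0.999, 0.999 and 0.999; 1142 genes above 0.95), and Adgrg1, Ifit3b and Mgll to Cdh3 (0.995, 0.995 and 0.994; 374 genes). No gene passed 0.95 for Cdh1 or Cdh11, whose nearest were Dnajc3 (0.905) and Dcun1d1 (0.925).

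Catenins, the cytoplasmic partners of classical cadherins, mostly moved the other way. Of 10 catenin-family genes 7 were tested, of which 6 rose and 1 fell between day 6 and day 0. Of all genes, 33.5% were higher and 31.4% lower. The median log2 fold change of the 7 was 0.48, beside 0.02 for all genes. Ctnnb1, beta-catenin, which links cadherin tails to alpha-catenin and also serves Wnt signalling, had 622 ± 18.5 CPM at day 6 against 237 ± 6.37 CPM at day 0 (log2 fold change 1.39 ± 0.035, adjusted p = 2.54e-14). Ctnnd1, p120-catenin, which holds cadherins at the membrane, had 401 ± 3.02 against 249 ± 2.95 CPM (0.69 ± 0.0307, adjusted p = 2.24e-11). Jup, plakoglobin, had 232 ± 4.02 against 157 ± 4.18 CPM. The alpha-catenin gene Ctnna1 had 524 ± 1.9 against 444 ± 2.59 CPM, up 1.18-fold, and the p120 relatives Arvcf and Pkp4 rose 1.4-fold and 1.36-fold. Ctnnal1, an alpha-catenin relative, fell 1.56-fold.

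Between day 12 and day 6, no catenin rose and 2 of 7 fell in the edgeR fit, beside 22.6% and 22.7% of all genes. Ctnnd1 fell by 0.21 and Pkp4 by 0.18 on the log2 scale. On log2(TPM + 1) both differences turned positive (0.02 and 0.07) and were not called. Ctnnb1 stood at 623 ± 15.6 CPM at day 12 against 622 ± 18.5 CPM at day 6 (adjusted p = 0.98). At day 12 the same 6-to-1 split against day 0 was counted, beside 34.7% of all genes higher and 31.7% lower, with Ctnnb1 2.63-fold higher. Ctnnd1 shares 4482 exon bases with the model gene Gm28635 on the same strand, and Ctnnb1 759 bases with Ulk4 on the other, so those counts carry some doubt.

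**Figure D4:**
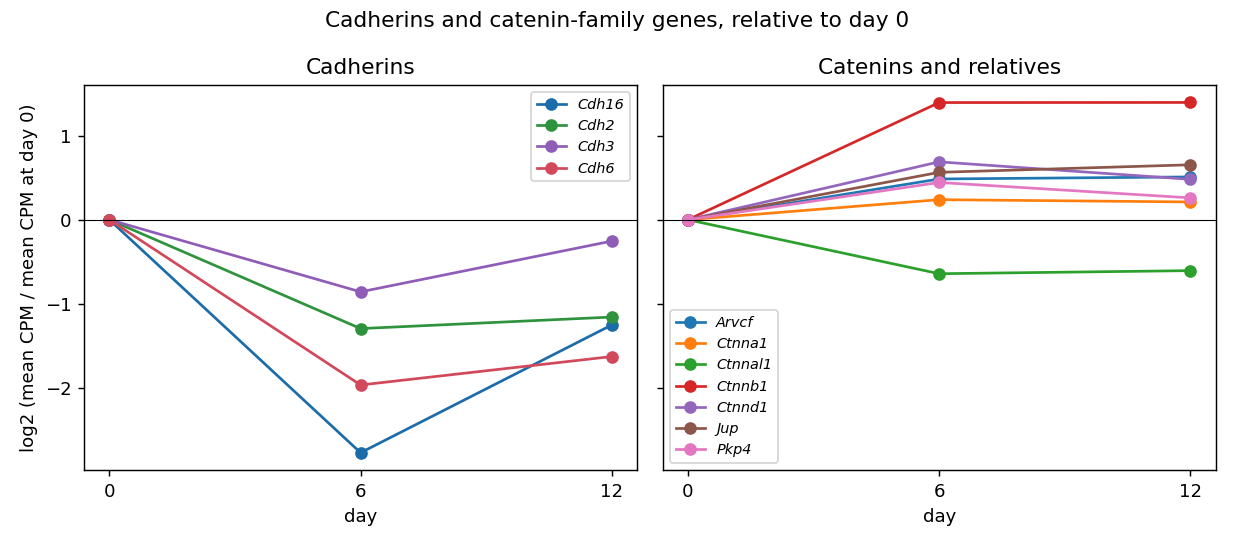
Mean CPM relative to day 0 on a log2 scale (vertical axis, the same in both panels) against day (horizontal axis) for the 4 abundant cadherins and the 7 catenin-family genes tested. Lines join means of 3 libraries. All 4 cadherins lie below 0 at day 6 and day 12, and 6 of 7 catenin-family genes lie above it.

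Other cadherins did not share 1 direction. Of 46 further cadherin-superfamily genes 19 were tested, and 8 rose and 6 fell between day 6 and day 0. Of all genes, 33.5% were higher and 31.4% lower. The median of the 19 was 0.04 on the log2 scale. Cdh13, T-cadherin, which is held by a lipid anchor and lacks a cytoplasmic tail, had 29.8 ± 1.42 CPM at day 6 against 9.05 ± 0.62 CPM at day 0 and fell again at day 12, to 20.1 ± 0.954 CPM (adjusted p = 9.84e-07 against day 6). Pcdh7, a protocadherin, fell 2.82-fold and regained 1.32-fold by day 12. Pcdh18, also a protocadherin, and Clstn2, a calsyntenin, rose 5.61-fold and 2.31-fold by day 6. Cdh17, a structural relative of Cdh16 known from liver and intestine, had 0.594 ± 0.0824 against 1.46 ± 0.181 CPM (adjusted p = 2.46e-05). Cdh24 rose 1.17-fold. Cdh15 was called higher with at most 24 counts in a library, and Cdh23 did not pass the test (adjusted p = 0.09). The other 12 of 17 numbered cadherins had at most 2 counts in any library, among them Cdh5 of endothelium. Between day 12 and day 6, 3 of the 19 rose and 7 fell, beside 22.6% of all genes higher and 22.7% lower.

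Several repressors of the Cdh1 promoter known from epithelial to mesenchymal transition rose by day 6, in cells with at most 52 counts of Cdh1 in any library. Of 14 listed, 11 were tested, 8 rose and none fell between day 6 and day 0, beside 33.5% of all genes higher and 31.4% lower. Their median log2 fold change was 0.65, beside 0.02 for all genes. Snai1 had 5.81 ± 0.277 CPM at day 6 against 1.05 ± 0.137 CPM at day 0 (adjusted p = 2.26e-11). Zeb1 had 93.7 ± 2.21 against 59.8 ± 2.2 CPM and Zeb2 10.6 ± 0.813 against 3.01 ± 0.583 CPM. The basic helix-loop-helix factor genes Twist2, Tcf4 and Tcf3 rose 3.54-fold, 2.06-fold and 1.29-fold. Prrx1 was called higher, with 0 counts at day 0 and 0.105 ± 0.00264 CPM at day 6. It passed the filter only through libraries after day 0 and could not have been called lower. Its call therefore adds no support to the 8 that rose. Twist1, Snai3 and Klf8 did not pass the test (adjusted p = 0.0703, 0.216 and 0.867).

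Between day 12 and day 6, 2 of these repressors rose and 3 fell, beside 22.6% of all genes higher and 22.7% lower. Twist1 had 3.27 ± 0.19 CPM at day 12 against 2.21 ± 0.371 CPM at day 6 (adjusted p = 0.00366), and Prrx1 0.296 ± 0.0593 against 0.105 ± 0.00264 CPM. Zeb1 fell to 73.7 ± 1.67 against 93.7 ± 2.21 CPM (adjusted p = 1.22e-06). Tcf3 and Tcf4 fell by 0.16 and 0.15 on the log2 scale, but stood at 0.05 and 0.12 without a call on log2(TPM + 1). Snai1, Zeb2 and Twist2 were not called between those days (adjusted p = 0.852, 0.591 and 0.389). Exons of Zeb1, Zeb2 and Twist2 overlap genes on the other strand, and the strand setting of the counting is not given in the sources used here.

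Among 14 regulators of epithelial identity, 10 were tested, with 6 higher and 3 lower between day 6 and day 0. The 6 include Pax8, the gene to be deleted by the treatment, and Pax2, which the genotype label gives as deleted. Of all genes, 33.5% were higher and 31.4% lower. Esrp2, an epithelial splicing factor, fell 1.94-fold by day 6 and rose 1.52-fold by day 12. Klf4, a transcription factor that can activate Cdh1, rose 2.29-fold and then fell 1.57-fold. Of 14 mesenchymal genes, 13 were tested, and 10 rose and 2 fell by day 6 (median 1.34), beside 33.5% of all genes higher and 31.4% lower. Postn, a matrix protein, had 88 ± 9.1 against 2.78 ± 0.157 CPM, and Acta2, smooth muscle actin, 23.6 ± 0.753 against 0.922 ± 0.0473 CPM. Fn1 (fibronectin) rose 2.81-fold and S100a4 2.8-fold, and Tnc (tenascin C) fell 3.29-fold. S100a4 shares 302 exon bases with the model gene Gm42674 on the same strand, so its counts carry some doubt.

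Nectins and junction adaptors rose in 9 and fell in 6 of 19 tested by day 6, beside 33.5% of all genes higher and 31.4% lower. Lima1, which ties alpha-catenin to actin, had 558 ± 11.4 CPM at day 6 against 161 ± 2.26 CPM at day 0 and fell to 413 ± 14.1 CPM at day 12. Ptprf, a receptor phosphatase of cell contacts, rose 2.23-fold. Zyx, zyxin, and Ssx2ip, a partner of afadin, fell 1.72-fold and 1.7-fold. Proteases that mature or shed cadherins rose in 11 and fell in 1 of 14 by day 6, beside the same shares of all genes. Their median log2 fold change was 0.22. Mmp14, a membrane-bound matrix protease, had 236 ± 2.54 against 143 ± 2.31 CPM, and Furin, which cleaves the cadherin propeptide, 83.1 ± 0.442 against 69.3 ± 1.28 CPM. Mmp3 had no count at day 0, so it could not have been called lower, and 1.96 ± 0.501 CPM at day 6. Mmp9 rose to 2.38 ± 0.144 CPM. Between day 12 and day 6, 6 of the 14 fell and 1 rose, beside 22.7% of all genes lower and 22.6% higher, with Mmp14 down 1.34-fold. Aph1a, a gamma-secretase subunit, was among those that fell (−0.13 on the log2 scale, adjusted p = 0.00193), but was called higher on log2(TPM + 1) (0.12, adjusted p = 0.00774).

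Markers of other cell types differed in level between lists. All 7 loop and distal tubule markers stayed below 1 TPM in every library, and their sum was 0.02 to 0.05 TPM at day 0, 0.01 to 0.04 at day 6 and 0.03 to 0.1 at day 12. The 8 collecting duct markers summed to 3.24 to 4.25, 1.78 to 2.16 and 2.93 to 3.41 TPM at those days. Stromal markers summed to 6.36 to 6.93, 5.06 to 5.43 and 9.41 to 10.5 TPM, with Pdgfra, Lum and Rgs5 at 5 counts or fewer in a library. Of 5 stromal markers tested, 3 rose and 1 fell between day 6 and day 0, beside 33.5% of all genes higher and 31.4% lower. Dcn (decorin), a matrix proteoglycan, was the one that fell and averaged 4.3, 0.4 and 5.26 TPM at days 0, 6 and 12. Pdgfrb, a growth factor receptor of mural cells, rose and averaged 0.02, 0.64 and 0.46 TPM, and the proteoglycan gene Cspg4 rose and averaged 1.67, 2.99 and 2.12 TPM. The 6 endothelial markers summed to 11.9 to 13.6, 7.82 to 11.1 and 12.7 to 14 TPM. Of these, 5 stayed below 1 TPM in every library, with Cdh5, Kdr and Emcn at 1 count or fewer. The 6 immune markers summed to 20.7 to 23.1, 20.6 to 23.1 and 21.5 to 24.3 TPM, and 5 of the 6 stayed below 1 TPM, with Cd68, a lysosomal protein of macrophages and other cells, making up nearly all of the sum. Podocyte markers, led by Synpo and Podxl, summed to 134 to 144, 89.1 to 93.7 and 135 to 148 TPM and so also were lowest at day 6. The part of these markers in the course of the cadherins was not tested.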

How the data were processed

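Raw counts (whole numbers) and TPM for every gene were deposited by the authors in separate tables. The submitters' processing notes name RSEM 1.3.3, STAR 2.7.8a, FastQC 0.11.8, cutadapt 2.3 and build GRCm38. What each did, which annotation and strand setting applied and whether the counts are rounded RSEM estimates is not given in the sources used here.

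Rows of 4 transgenes (0.00204% to 0.00284% of counts) were left out. After filterByExpr (groups as given), 16353 genes remained, all 6 cadherins among them. Counts were scaled by TMM and fitted in edgeR 4.0.16 (quasi-likelihood, R 4.3.3) with a mean per group over all 9 libraries and 6 residual degrees of freedom. The fit was also run on simulated counts with a fixed dispersion and few changed genes. That setting is unlike these data and says nothing on how the fit behaves here. P-values were adjusted by Benjamini-Hochberg over all genes tested. Values with ± are means and SD of 3 libraries, or a log2 fold change and the SE implied by its F statistic. One count was worth 0.0119 to 0.0175 CPM. Replicates differed by 5.23 to 41.4 times the sampling variance, so none was a repeat deposit. Alternatives used DESeq2 1.42.0, limma 3.58.1 on log2(TPM + 1) and log2(TPM + 0.1), upper-quartile factors, no filter, other sample sets and a replicate block. Positions and exon overlaps came from GENCODE M21 on GRCm38.

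The members and lists were chosen with earlier results of these data known. Named genes are the members, Pax8 and Pax2, up to 4 and 3 genes of each list with the smallest adjusted p at day 6 and day 12, all tested catenins, numbered cadherins and E-cadherin repressors, and the 3 genes most correlated with each member (65 in all beside the members). Markers and the ratios other than Cdh2 to Cdh1 were picked for the text after values had been seen. Planned protein comparisons were not made. Some of the genes that this rule selects, and 1 of the motifs searched, are not reported here.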

Additional observations from a re-analysis of the deposited data

How the results depend on the processing

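The directions and calls of Cdh16, Cdh6 and Cdh2 held in all 3 comparisons under each of the 17 alternatives. Cdh3 held in all but TPM, where its difference between day 12 and day 0 was 0.0090 and 0.0092 at a pseudocount of 1 and 0.1.

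Cdh1, at 19 to 52 counts, was the member that moved. Its day 6 against day 0 value was −0.094 on log2(TPM + 1) and −0.40 on log2(TPM + 0.1), neither called, and ran from −0.96 to −0.55 with single libraries left out. For day 12 against day 6 it was 0.72 in DESeq2 and 0.72 with the replicate block, neither called, and 0.62 to 0.83 with single libraries left out. Between day 12 and day 0, upper-quartile factors gave 0.019, the TPM scales 0.13 and 0.47, and single left-out libraries −0.24 to 0.18. Cdh11 ran from −0.14 to 0.27 between day 12 and day 6 with single libraries left out.

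Replicate letters did not pair the libraries (correlations of same-letter deviations −0.0834 to 0.0783), and the block changed no other call of a member. The Cdh2 to Cdh1 ratio differed by −1.13 for day 6 against day 0 with 1 added to each TPM, by −0.61 from raw counts and 0.11 with 1 added for day 12 against day 6, and by −1.17 and −1.02 for day 12 against day 0.

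Of 158 values of the other named genes, recomputed 2684 times, 2616 kept their call and direction, 50 lost the call and 18 turned direction, all on TPM. On log2(TPM + 1) and log2(TPM + 0.1), Dcun1d1 was at 0.0061 and 0.0062 for day 6 and 0.113 and 0.115 for day 12 against day 0, the second pair called higher (adjusted p = 0.0217 and 0.0224). For day 12 against day 6 these were 0.124 and 0.125 for Aph1a, called higher (adjusted p = 0.00774 and 0.00858), and, none of them called, 0.062 and 0.065 for Cdh24, 0.0203 and 0.0204 for Ctnnd1, 0.067 and 0.068 for Pkp4, 0.0021 and 0.0021 for Ptprf, 0.048 and 0.048 for Tcf3, and 0.119 and 0.122 for Tcf4. In that comparison 50% of calls were higher with TMM and 90.1% on TPM, and for day 12 against day 0 52.3% and 81.3%; the cause was not tested.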
